A study of Homo sapiens with 15 samples.

Results

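Here 10 genes of entry into mitosis were followed in BT474 breast cancer cells that had become resistant to trastuzumab emtansine (T-DM1): CCNB1, CCNB2, CDK1, CCNA2, PLK1, CDC25B, CDC25C, WEE1, PKMYT1 and CDC20. They were chosen by symbol as the cyclins, kinases and phosphatases that set off mitosis and the first switch out of it. The choice was made with earlier results of these data known. Of the 10 genes, 9 had a probe set with a symbol and all 9 were among the 12147 genes tested; PKMYT1 was not analysed here. Each of the 9 was read by 1 probe set, which lay above the filter on dim signals in all 15 arrays. The values are log2 expression values, and since probes differ in brightness, the level of 1 gene cannot be set against that of another.

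BT474 is a luminal breast cancer line with amplified HER2, and T-DM1 is a conjugate of a HER2 antibody with a drug that blocks microtubules. The 4 clones (C#1 to C#3 and C#6) were derived from BT474 by long exposure to T-DM1 and single-cell cloning and were kept in 5 nM T-DM1 for 3 months, and each was set against the drug-sensitive parental line. All groups were grown in the same serum-containing medium; the labels do not say if T-DM1 was in it when RNA was taken. Each group had 3 arrays, labelled as biological replicates. Each clone descends from 1 cell, so its 3 arrays replicate that clone only, and no clone without selection was measured, so resistance, cloning and drug culture cannot be told apart.

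Cyclin B bound to CDK1 is the kinase that drives a cell from G2 into mitosis, and cyclin A2 acts with CDK1 and CDK2 before it. WEE1 and PKMYT1 hold CDK1 inactive by phosphorylating it, the CDC25 phosphatases remove those phosphates, and PLK1 promotes the switch by activating CDC25C and marking WEE1 for destruction. CDC20 then activates the anaphase-promoting complex (APC/C), which destroys the cyclins. Transcripts of most of these genes peak in G2 and M phase under FOXM1, the MuvB complexes (with MYBL2, or with repressors as DREAM) and NF-Y.

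The arrays were alike overall: over all probe sets, which are not independent of each other, 2 arrays of the same group correlated at 0.985 to 0.993 and 2 of different groups at 0.975 to 0.991. The upper quartiles were 5.80 to 5.89 in the clone arrays and 5.94 to 5.96 in the parental arrays. Of 12 luminal markers, 10 had a named probe set and all 10 were tested; KRT18, KRT19 and EPCAM lay at or above the 97.7 percentile of every array, and KRT8, the lowest placed, reached down to the 67.2 percentile. GATA3, a luminal transcription factor, fell in every clone, with means of 6.23 ± 0.21 in C#1, 5.98 ± 0.29 in C#2, 8.36 ± 0.12 in C#3 and 6.77 ± 0.16 in C#6, against 9.12 ± 0.13 in parental cells (SD, n = 3 each). ESR1 also fell in every clone, GRB7 and KRT18 fell in C#3 and C#6, KRT8 fell in C#1 and C#6, and EPCAM rose in C#1, C#2 and C#6 (limma). The summed log2 level of the 10 was 86.20 to 87.81 in C#1, 86.95 to 88.94 in C#2, 88.45 to 89.25 in C#3 and 87.12 to 87.40 in C#6, against 91.28 to 91.55 in parental cells, and its part in the results below was not tested. The fibroblast markers DCN and LUM, the leukocyte marker LYZ and the endothelial markers PECAM1 and KDR did not pass the filter; THY1, CD14 and VWF, 1 of each class, did.

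Most of these genes were lower in C#3 and C#6, and fewer were lower in C#1 and C#2. In C#3 and C#6, 7 of the 9 measured genes fell relative to the parental line (CCNB1, CCNB2, CCNA2, PLK1, CDC25B, WEE1 and CDC20). In C#1 only CCNB1, PLK1 and CDC20 fell, and in C#2 only CCNB1 and CDC20. No gene rose in any clone in limma's test, and none was higher at an unadjusted p under 0.05 either. The largest drops were of WEE1, 2.18-fold lower in C#3 and 2.40-fold lower in C#6, of CDC20, 2.26-fold lower in C#6, and of CCNB2, 2.01-fold lower in C#3. In bulk RNA, fewer cells in G2 and M phase and less RNA of these genes per cell cannot be told apart.

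Read against all genes, the calls (adjusted p under 0.05) were 3 of 9 lower in C#1, where 11.2% of all tested genes were lower, and 2 of 9 lower in C#2, where 11.5% were. They were 7 of 9 lower in C#3 against 11.0% of all genes and 7 of 9 in C#6 against 14.7%. The median log2 difference of the 9 genes was -0.08 in C#1, -0.02 in C#2, -0.62 in C#3 and -0.70 in C#6, while the median over all tested genes was -0.02, -0.02, 0.00 and -0.02 in the same order of clones. All 7 genes lower in C#3 were also lower in C#6, a joint call met by 7.14% of all genes; the 4 comparisons share the parental arrays. CCNB1 and CDC20 were lower in all 4 clones, a joint call met by 3.65% of all genes. Between C#1 and C#2 0% of all genes were called, so whether they count as separate clones in this joint call is not known.

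**Figure D1:**
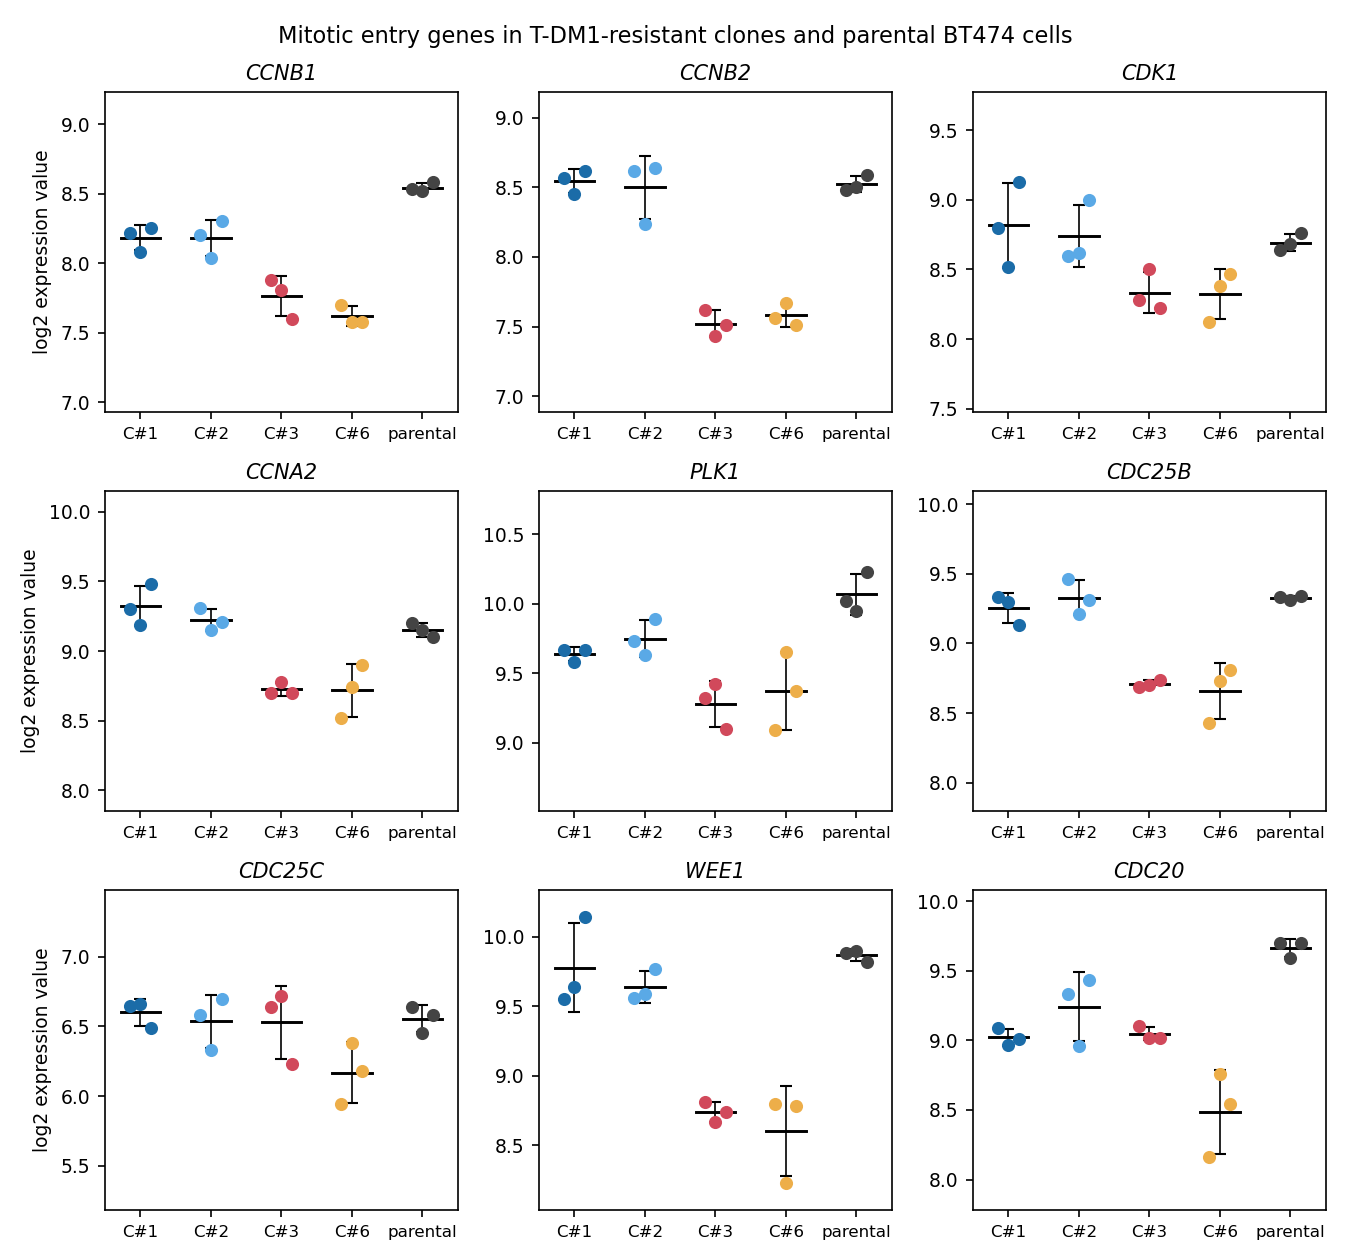
Log2 expression of the 9 measured genes in each array (points; 3 per group), with the group mean as a bar and error bars of 1 SD, for the clones and the parental line. C#3 and C#6 lie below the parental arrays for every gene except CDC25C in C#3.

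Of the genes, 8 have a promoter window in RefSeq (GRCh38.p14; WEE1 and PKMYT1 are named only), and because most of them fell together in C#3 and C#6, the 120 bases before the transcription start are shown 5′ to 3′ on the gene's strand. Capitals mark the cell cycle genes homology region (CHR; TTTGAA or TTCGAA, or the reverse complement of the first, TTCAAA), to which MuvB complexes bind, and the CCAAT box (CCAAT, or ATTGG on the other strand), to which NF-Y binds. No CHR match overlapped a CCAAT match in these stretches. The stretches lie at chr5:69167030-69167149 on the + strand for CCNB1, chr15:59105026-59105145 (+) for CCNB2, chr10:60778358-60778477 (+) for CDK1, chr4:121823884-121824003 (-) for CCNA2, chr16:23678769-23678888 (+) for PLK1, chr20:3796190-3796309 (+) for CDC25B, chr5:138331805-138331924 (-) for CDC25C and chr1:43358861-43358980 (+) for CDC20. Where a gene had several annotated starts (2 for CDK1, 4 each for CDC25B and CDC25C), only the start chosen by its matches is shown. A start with a CHR match in the 120 bases was preferred, then the start with the most matches there.
CCNB1: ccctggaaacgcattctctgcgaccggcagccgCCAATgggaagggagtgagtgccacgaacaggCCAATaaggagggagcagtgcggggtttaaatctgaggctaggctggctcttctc
CCNB2: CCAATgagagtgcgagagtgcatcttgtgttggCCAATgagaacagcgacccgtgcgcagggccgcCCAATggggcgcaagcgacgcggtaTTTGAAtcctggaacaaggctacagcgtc
CDK1: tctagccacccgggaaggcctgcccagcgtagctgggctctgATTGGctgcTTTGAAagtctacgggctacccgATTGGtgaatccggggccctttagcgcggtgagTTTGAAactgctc
CCNA2: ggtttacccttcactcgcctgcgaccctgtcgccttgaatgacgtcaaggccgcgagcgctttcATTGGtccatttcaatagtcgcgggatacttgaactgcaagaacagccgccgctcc
PLK1: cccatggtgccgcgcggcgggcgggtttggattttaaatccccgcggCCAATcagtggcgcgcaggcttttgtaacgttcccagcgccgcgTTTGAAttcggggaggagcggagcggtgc
CDC25B: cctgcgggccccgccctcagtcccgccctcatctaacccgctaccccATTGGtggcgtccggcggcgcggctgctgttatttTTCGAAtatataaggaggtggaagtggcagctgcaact
CDC25C: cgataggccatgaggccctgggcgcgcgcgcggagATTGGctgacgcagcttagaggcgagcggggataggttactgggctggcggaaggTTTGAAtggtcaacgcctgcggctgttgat
CDC20: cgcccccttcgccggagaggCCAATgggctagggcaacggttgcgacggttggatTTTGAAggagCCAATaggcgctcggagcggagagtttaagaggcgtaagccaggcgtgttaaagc

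CCNB1, CCNB2, CDK1, CCNA2, PLK1, CDC25B, CDC25C and CDC20 all held a CCAAT box in the 120 bases, as did 24.3% of the 27305 genes with a window, at any of their starts. A match to the CHR letters searched stood in 6 of these 8 genes (CCNB2, CDK1, PLK1, CDC25B, CDC25C and CDC20). The share of all genes was 7.6%, at any of their starts. CCNB2 held 3 CCAAT boxes, at -120, -87 and -54. CCNB1 (-87 and -55), CDK1 (-78 and -46) and CDC20 (-100 and -55) each held 2. At least 2 stood at some start in 4 of the 8 genes, against 5.6% of all genes. The CHR match lay at -29 in CCNB2 and PLK1, -30 in CDC25C, -38 in CDC25B, -65 in CDC20, and -69 and -13 in CDK1. Positions are counted from the start to the motif's first base. A match is a description of the letters only. Genes called lower and genes not called both held matches: CDC25C, with both motifs, was not called in any clone. CCNB1 and CCNA2, with no match to the CHR letters searched in the window, fell in both C#3 and C#6. Other forms of the CHR were not searched, so a CHR with other letters would not be marked. A link between the motifs and the falls was not tested.

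**Figure D2:**
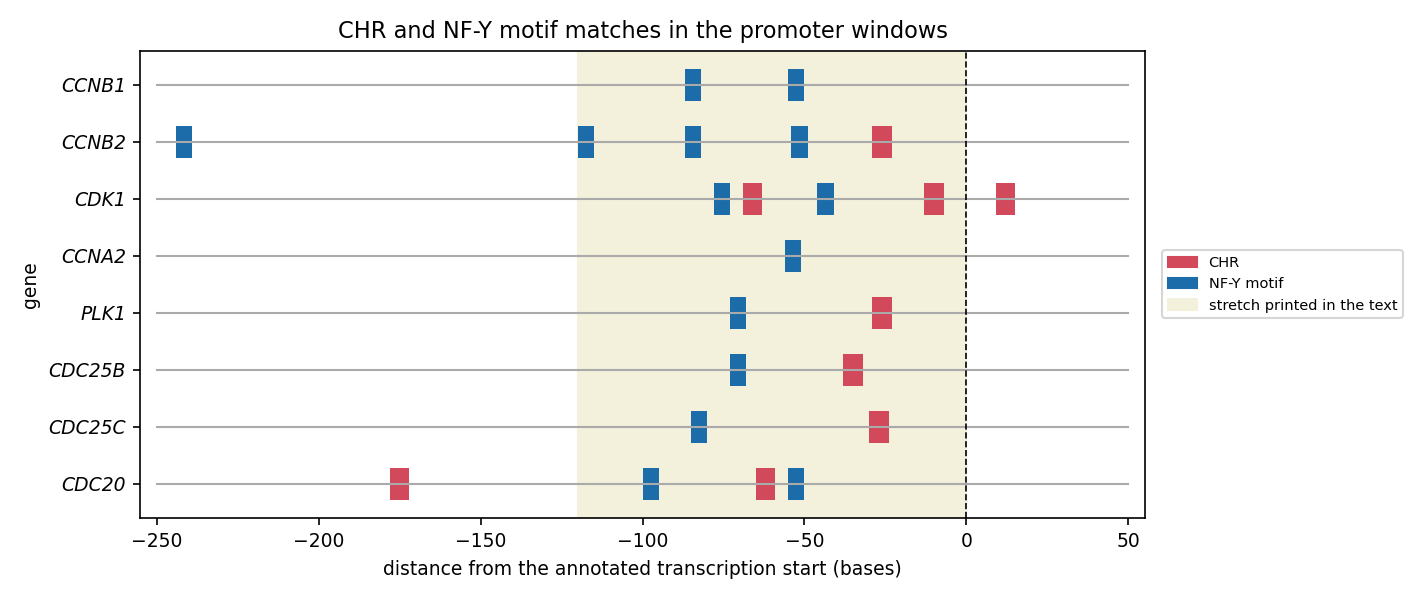
Position of CHR matches (red) and NF-Y (CCAAT box) matches (blue) in the RefSeq promoter windows of the 8 genes, in bases from the annotated transcription start; the shaded stretch is the 120 bases printed in the text. Every gene has a CCAAT box within 120 bases of the start, and 6 have a match to the CHR letters searched there.

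CCNB1 encodes cyclin B1, the main cyclin of mitotic entry, and was the only one of the 3 cyclins that fell in all 4 clones. The arrays read CCNB1 at log2 8.22, 8.08 and 8.25 in C#1, 8.20, 8.04 and 8.30 in C#2, 7.88, 7.81 and 7.60 in C#3 and 7.70, 7.58 and 7.58 in C#6, against 8.53, 8.52 and 8.58 in parental cells. Every clone array lay below every parental array, with C#3 and C#6 lowest. The log2 difference from parental was -0.36 in C#1 (SE 0.10, limma adjusted p = 0.0218), -0.36 in C#2 (SE 0.10, adjusted p = 0.0213), -0.78 in C#3 (SE 0.10, adjusted p = 8.89e-05) and -0.92 in C#6 (SE 0.10, adjusted p = 1.04e-05), which is 1.28-, 1.29-, 1.72- and 1.90-fold lower. The calls in C#1 and C#2 depended on single arrays. The C#1 call was lost without any 1 of the 3 parental arrays or C#1 replicate 2 (-0.38 to -0.31), and the C#2 call without any 1 of the 3 parental arrays or C#2 replicate 2 (-0.38 to -0.29).

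CCNB2 encodes cyclin B2, which pairs with CDK1 mainly at the Golgi, and it was called in C#3 and C#6. CCNB2 log2 values were 8.57, 8.45 and 8.62 in C#1, 8.62, 8.24 and 8.64 in C#2, 7.62, 7.43 and 7.51 in C#3 and 7.56, 7.67 and 7.51 in C#6, against 8.48, 8.50 and 8.59 in parental cells. The arrays of C#3 and C#6 all lay far below those of the other groups, whereas C#1 and C#2 overlapped the parental arrays. CCNB2 was 2.01-fold lower in C#3 (log2 difference -1.0, SE 0.11, limma adjusted p = 2.04e-05) and 1.93-fold lower in C#6 (-0.95, SE 0.11, adjusted p = 1.93e-05). The differences were 0.03 in C#1 (adjusted p = 0.911) and -0.02 in C#2 (adjusted p = 0.916).

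CDK1, the kinase itself, was not called against parental in any clone. The arrays read CDK1 at log2 8.80, 8.52 and 9.13 in C#1, 8.60, 8.62 and 9.0 in C#2, 8.28, 8.50 and 8.22 in C#3 and 8.12, 8.38 and 8.47 in C#6, against 8.64, 8.68 and 8.76 in parental cells. C#3 and C#6 lay wholly below the parental arrays, and C#1 and C#2 overlapped them, with replicate 3 the highest array of each. The log2 difference was 0.12 in C#1 and 0.05 in C#2, and -0.36 in C#3 (SE 0.15, limma adjusted p = 0.115) and -0.37 in C#6 (SE 0.15, adjusted p = 0.0882). With limma fitted to the 6 arrays of each comparison alone, C#3 and C#6 passed the threshold (adjusted p = 0.0343 and 0.0382, against ranges of 0.0343 to 0.280 and 0.0382 to 0.273 over all alternatives).

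CCNA2 encodes cyclin A2, which acts in S and G2 phase. CCNA2 log2 values were 9.30, 9.19 and 9.48 in C#1, 9.31, 9.15 and 9.21 in C#2, 8.70, 8.78 and 8.70 in C#3 and 8.52, 8.74 and 8.90 in C#6, against 9.20, 9.15 and 9.10 in parental cells. Both C#3 and C#6 lay below every parental array, while C#1 and C#2 overlapped them. It was 1.34-fold lower in C#3 (log2 difference -0.42, SE 0.11, limma adjusted p = 0.0133) and in C#6 (-0.43, SE 0.11, adjusted p = 0.00896), with differences of 0.17 in C#1 and 0.08 in C#2 that were not called. Without parental replicate 1 the C#3 call was lost (-0.39).

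PLK1 encodes polo-like kinase 1, which drives the switch into mitosis and later spindle and cytokinesis steps. The arrays read PLK1 at log2 9.67, 9.58 and 9.67 in C#1, 9.73, 9.63 and 9.89 in C#2, 9.32, 9.42 and 9.10 in C#3 and 9.09, 9.65 and 9.37 in C#6, against 10.02, 9.95 and 10.23 in parental cells. No clone array reached the lowest parental array, and the lowest arrays were in C#6 and C#3. PLK1 was 1.34-fold lower in C#1 (log2 difference -0.43, SE 0.14, limma adjusted p = 0.0387), 1.73-fold in C#3 (-0.79, SE 0.14, adjusted p = 0.000906) and 1.62-fold in C#6 (-0.70, SE 0.14, adjusted p = 0.00141). In C#2 the difference was -0.32 (adjusted p = 0.122). The C#1 call was lost without any 1 of the 3 parental or 3 C#1 arrays (-0.49 to -0.34) and after renewed quantile normalization (-0.39).

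Of the 2 listed phosphatases that activate CDK1, 1 was called. CDC25B, thought to start the activation at the centrosome, fell in C#3 and C#6. CDC25B log2 values were 9.33, 9.30 and 9.13 in C#1, 9.46, 9.21 and 9.31 in C#2, 8.69, 8.70 and 8.74 in C#3 and 8.43, 8.73 and 8.81 in C#6, against 9.33, 9.31 and 9.34 in parental cells. In C#3 and C#6 every array was below every parental array, and in C#1 and C#2 the arrays overlapped them. The log2 difference was -0.62 in C#3 (SE 0.11, limma adjusted p = 0.000997) and -0.67 in C#6 (SE 0.11, adjusted p = 0.000318), or 1.53- and 1.59-fold lower, and -0.08 in C#1 and 0.00 in C#2.

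CDC25C, the phosphatase that PLK1 acts on, was not called in any clone. The arrays read CDC25C at log2 6.65, 6.66 and 6.49 in C#1, 6.58, 6.33 and 6.70 in C#2, 6.64, 6.72 and 6.23 in C#3 and 5.94, 6.38 and 6.18 in C#6, against 6.64, 6.45 and 6.58 in parental cells. Only C#6 lay apart, with all 3 arrays below the parental ones. Its log2 difference was -0.39 in C#6 (SE 0.14, limma adjusted p = 0.0601), against -0.03 in C#3, -0.02 in C#2 and 0.04 in C#1. The C#6 difference passed the threshold without C#3 replicate 3 or without C#6 replicate 2 (-0.50 to -0.39), and also with the stricter filter (-0.39), with array weights (-0.33) and in a fit to its 6 arrays (-0.39).

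WEE1, the kinase that restrains CDK1, showed the largest differences of the 9 genes in C#3 and C#6, and in the same direction as the genes that promote mitosis. WEE1 log2 values were 9.55, 9.64 and 10.14 in C#1, 9.56, 9.59 and 9.77 in C#2, 8.81, 8.67 and 8.74 in C#3 and 8.80, 8.23 and 8.78 in C#6, against 9.88, 9.90 and 9.82 in parental cells. The arrays of C#3 and C#6 were all at least 1 log2 unit below the lowest parental array, those of C#2 were just below it, and those of C#1 overlapped the parental arrays through replicate 3. WEE1 was 2.18-fold lower in C#3 (log2 difference -1.13, SE 0.16, limma adjusted p = 0.000159) and 2.40-fold lower in C#6 (-1.26, SE 0.16, adjusted p = 2.8e-05). It differed by -0.09 in C#1 (adjusted p = 0.768) and -0.23 in C#2 (adjusted p = 0.356), neither of which was called.

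CDC20, the APC/C activator, fell in all 4 clones, most in C#6. The arrays read CDC20 at log2 9.09, 8.97 and 9.01 in C#1, 9.33, 8.96 and 9.43 in C#2, 9.10, 9.02 and 9.02 in C#3 and 8.16, 8.76 and 8.54 in C#6, against 9.70, 9.59 and 9.70 in parental cells. Every clone array lay below every parental array, and the 3 arrays of C#6 were the lowest of all. The log2 difference was -0.64 in C#1 (SE 0.14, limma adjusted p = 0.00449), -0.42 in C#2 (SE 0.14, adjusted p = 0.0458), -0.62 in C#3 (SE 0.14, adjusted p = 0.00564) and -1.18 in C#6 (SE 0.14, adjusted p = 1.97e-05), or 1.56-, 1.34-, 1.54- and 2.26-fold lower. The C#2 call was the least secure. It was lost without any 1 of 11 arrays (-0.47 to -0.28): the 3 parental arrays, C#1 replicates 2 and 3, C#2 replicates 1 and 2, the 3 C#3 arrays and C#6 replicate 3. It was also lost with no filter, after renewed quantile normalization (-0.36) and in a fit to its 6 arrays.

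**Figure D3:**
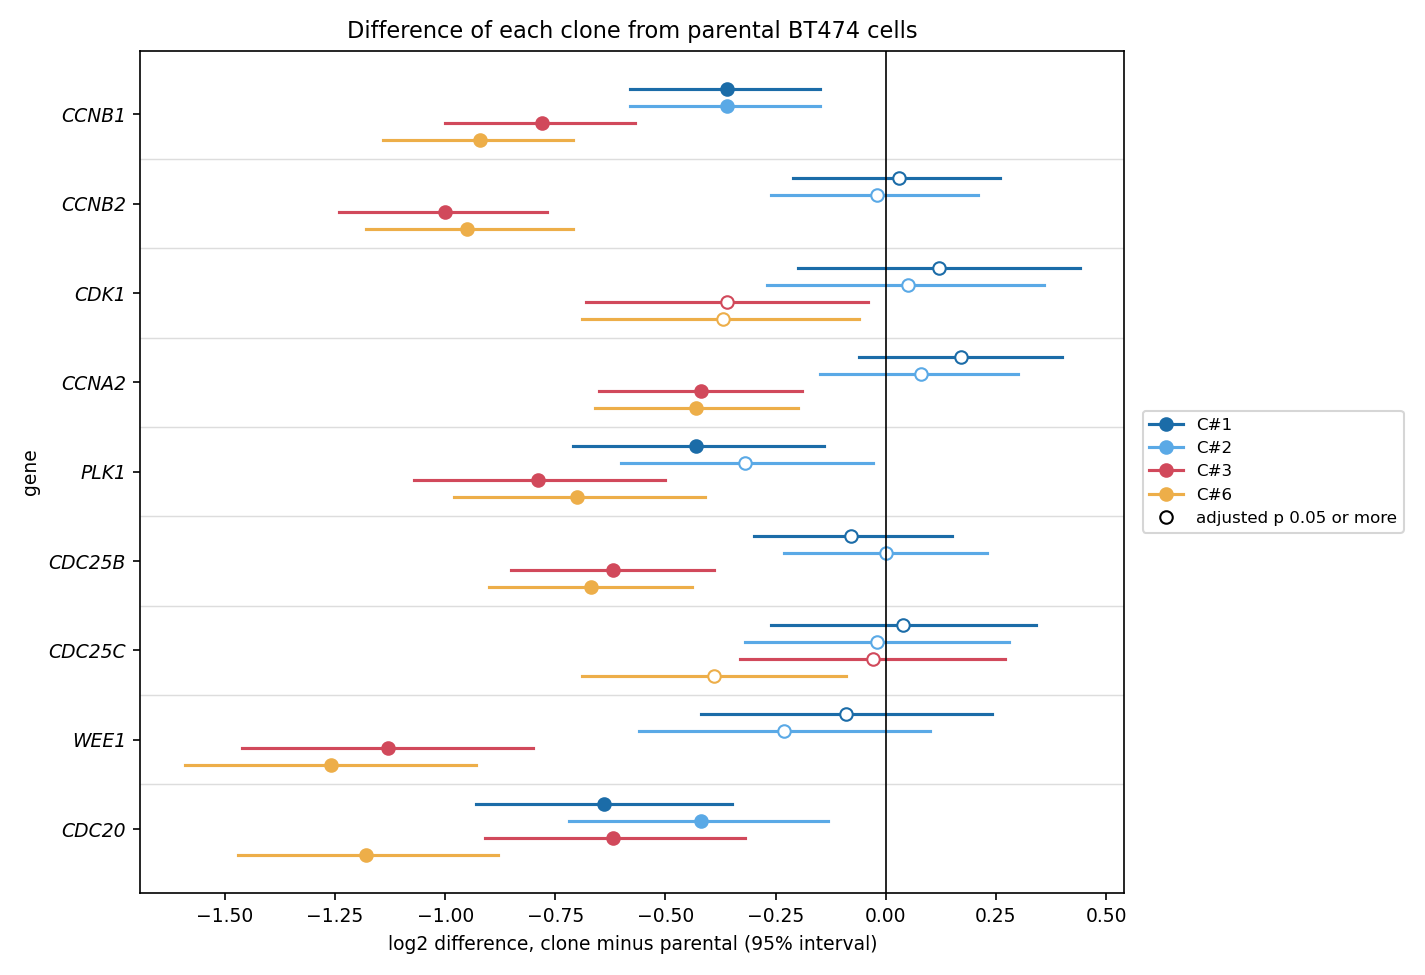
Log2 difference of each clone from the parental line for the 9 genes, with its 95% interval from limma; filled points have an adjusted p under 0.05. C#3 (red) and C#6 (yellow) lie left of 0 for 7 genes with filled points, while C#1 and C#2 (blue) are filled for CCNB1 and CDC20, and C#1 also for PLK1.

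Counted by arrays that do not overlap, 3 of 9 genes were wholly below the parental arrays in C#1 (background 21.8% of tested genes), 4 in C#2 (22.1%), 8 in C#3 (22.3%) and 9 in C#6 (24.1%). The genes below without a call were PLK1 and WEE1 in C#2, CDK1 in C#3, and CDK1 and CDC25C in C#6.

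Whether the clones themselves differed was tested directly, without the parental arrays in the difference. In limma's F test among the 4 clones, 8 of the 9 genes were called against 22.5% of all tested genes; CDC25C was the exception (adjusted p = 0.102). Between C#1 and C#2 none of the 9 genes was called, as for 0% of all genes, and none had an unadjusted p under 0.05, the lowest being 0.138. Relative to C#3, 6 of 9 genes were higher in C#1 (8.15% of all genes) and 6 in C#2 (6.96%). Relative to C#6, 7 of 9 were higher in C#1 (7.07% of all genes) and 6 in C#2 (5.69%). CCNB1, CCNB2, CCNA2, CDC25B and WEE1 were called in each of these 4 comparisons, although the CCNB1 difference between C#2 and C#3 (0.42) was not called in a fit to those 6 arrays.

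The largest of these differences were again of WEE1 and CCNB2. WEE1 was higher by 1.04 on the log2 scale in C#1 than in C#3 (SE 0.16, limma adjusted p = 0.00025) and by 1.17 in C#1 than in C#6 (SE 0.16, adjusted p = 0.000125). CCNB2 was higher by 1.03 in C#1 than in C#3 (SE 0.11, adjusted p = 1.25e-05) and by 0.97 in C#1 than in C#6 (SE 0.11, adjusted p = 3.33e-05). CDK1, not called against the parental line, was higher in C#1 than in C#3 by 0.48 (SE 0.15, adjusted p = 0.0369) and than in C#6 by 0.49 (SE 0.15, adjusted p = 0.0403). Both CDK1 calls rested on single arrays: the first was lost without C#1 replicate 1 or 3 or C#3 replicate 1 or 3 (0.32 to 0.49), and the second without any 1 of the 3 parental arrays, the 3 C#6 arrays or C#1 replicate 1 or 3 (0.34 to 0.57). With array weights they were 0.32 and 0.28 and not called, nor were they in fits to 6 arrays.

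Of these 4 comparisons PLK1 was called only between C#2 and C#3 (0.47, SE 0.14, limma adjusted p = 0.0254), and that call was lost without C#2 replicate 1, C#2 replicate 3 or C#3 replicate 3 (0.38 to 0.48). The difference of 0.36 between C#1 and C#3 (adjusted p = 0.0811) passed the threshold without C#6 replicate 1 (0.36), and the 0.38 between C#2 and C#6 (adjusted p = 0.0863) without C#6 replicate 2 (0.52). For CDK1, the 0.41 between C#2 and C#3 (adjusted p = 0.0801) passed without C#1 replicate 3 (0.41).

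C#3 and C#6 differed in 1 gene of 9, against 4.96% of all genes in that direction. CDC20 was higher in C#3 than in C#6 by 0.56 on the log2 scale (SE 0.14, limma adjusted p = 0.0176), a call lost without C#3 replicate 1 or C#6 replicate 1 (0.39 to 0.53) and in a fit to the 6 arrays alone. CDC20 also set C#6 apart from C#1, by 0.54 (SE 0.14, adjusted p = 0.0177; lost without C#1 replicate 1 or C#6 replicate 1, 0.37 to 0.50), and from C#2, by 0.75 (SE 0.14, adjusted p = 0.00192). CDC25C was 0.43 higher in C#1 than in C#6 (adjusted p = 0.0564) and 0.36 higher in C#3 than in C#6 (adjusted p = 0.136). The first passed the threshold without C#3 replicate 3 or C#6 replicate 2 (0.43 to 0.54) and the second without C#3 replicate 3 (0.51).

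The arrays within a group also differed. All 9 genes lay below their group mean in C#2 replicate 2, by 0.15 log2 units on average, and 7 of 9 did in C#6 replicate 1, by 0.13 on average. Within C#6, PLK1, CDC25C and CDC20 were lowest in replicate 1 (9.09, 5.94 and 8.16), whereas WEE1 and CCNB1 were highest there (8.80 and 7.70). Across the 15 arrays, deviations from the group means of PLK1 correlated with those of CDC25C (r = 0.823) and CDC20 (r = 0.804), and those of WEE1 ran against those of CDC25B (r = -0.499), CDC25C (r = -0.425), PLK1 (r = -0.393) and CDC20 (r = -0.358). Without C#6 replicate 1, left out after the data were seen, these values were 0.767, 0.653, -0.367, -0.308, -0.226 and -0.155. Of the 36 pairs, 5 had a negative value, 4 of them with WEE1, and without that array 8 did, of which the same 4 pairs were with WEE1. These are descriptions over arrays that share 5 group means, with no test.

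The genes whose level over the 15 arrays was most like CCNB1 by Pearson correlation were RAD21, a cohesin subunit (r = 0.958), GLI3 (0.944), CFL2 (0.938), KLHL5 (0.938) and ELP4 (0.936). The most opposed were AHCYL2 (-0.958), HSBP1 (-0.955), MRPS33 (-0.939), MXRA5 (-0.929) and KLHDC10 (-0.922). Within groups, RAD21 still followed CCNB1 (r of deviations 0.626), while ELP4 was at 0.172 and GLI3, CFL2 and KLHL5 lay between -0.08 and 0.03. For CDK1 the nearest were DEPDC1B (0.930), KIF20B (0.925), KNL1 (0.910), TBC1D31 (0.905) and KIF14 (0.893); KIF20B and KIF14 are mitotic kinesins and KNL1 a kinetochore scaffold. Their deviations within groups followed those of CDK1 too, with r from 0.760 for TBC1D31 to 0.913 for KNL1. For PLK1 they were TGS1 (0.944), ELP4 (0.942), MOCOS (0.916), UBL7 (0.912) and PYGO2 (0.910).

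Among 20 other genes of mitotic entry, 12 were tested. In C#1 1 gene fell and 1 rose, in C#2 1 rose, in C#3 2 fell and in C#6 4 fell, where 11.2%, 11.5%, 11.0% and 14.7% of all tested genes were lower in the same order; the median differences were 0.08, 0.07, -0.04 and -0.25 in the same order. CKS2, a small subunit of the CDK1 complex, fell by 1.04 on the log2 scale in C#6 (SE 0.13, limma adjusted p = 3.68e-05) and by 0.49 in C#3 (adjusted p = 0.0164), against differences of 0.10 and 0.20 in C#1 and C#2 that were not called. AURKA, the kinase that activates PLK1, fell by 0.38 in C#3 (SE 0.09, adjusted p = 0.00971) and by 0.49 in C#6 (SE 0.09, adjusted p = 0.00115), and NEK2, a centrosome kinase, fell by 0.70 in C#6 (SE 0.16, adjusted p = 0.00537). CDC25A, another CDC25 phosphatase, fell by 0.56 in C#1 (adjusted p = 0.0337) and CCNH, a subunit of the CDK1-activating kinase, by 0.44 in C#6 (adjusted p = 0.0387). The gene higher in C#1 and C#2 was SLK, a kinase that phosphorylates PLK1 (0.43 and 0.34), named after its values were seen. Whichever array was left out, CKS2, AURKA and NEK2 stayed called in C#6 and AURKA in C#3; the CKS2 call in C#3 was lost without parental replicate 2 or 3 or C#3 replicate 2 or 3 (-0.49 to -0.46). The calls of CDC25A (parental replicates 2 and 3, C#1 replicates 1 and 2; -0.59 to -0.48), CCNH (the 3 parental and 3 C#6 arrays; -0.47 to -0.40) and SLK (in C#1 without C#1 replicate 3, 0.39) were lost without any 1 of the arrays in brackets, and that of SLK in C#2 without any 1 of 7 arrays (0.30 to 0.34).

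In the checkpoint that restrains CDK1, 8 of 22 listed genes were tested, and CHEK2, a checkpoint kinase, was the only one called in any clone. Of all tested genes 11.2% were lower in C#1, 11.5% in C#2, 11.0% in C#3 and 14.7% in C#6. With 8 genes tested, 1 call in C#3 lies near its share. CHEK2 fell by 0.57 on the log2 scale in C#3 (SE 0.14, limma adjusted p = 0.0122; lost without parental replicate 1, -0.52). At an unadjusted p under 0.05, 1 gene was lower in C#3 and 1 in C#6, and none was lower in C#1 or C#2 or higher in any clone. The share of all genes at that unadjusted p is not given here. CDKN1A was not analysed here.

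Around CDC20, 25 of 26 genes of the APC/C and the spindle checkpoint were tested, and few were called. In C#1 1 gene fell, in C#2 1, in C#3 2 fell and 1 rose, and in C#6 5 fell, where 11.2%, 11.5%, 11.0% and 14.7% of all genes were lower; the median differences were -0.07, -0.05, -0.16 and -0.15. BUB1B, the checkpoint protein BUBR1 that holds CDC20 inactive, fell by 0.67 in C#3 (SE 0.13, limma adjusted p = 0.00217) and by 0.43 in C#6 (SE 0.13, adjusted p = 0.0272), and the checkpoint kinase BUB1 fell by 0.54 in C#6 (SE 0.14, adjusted p = 0.0109). The APC/C subunit ANAPC2 fell by 0.44 in C#6 and by 0.41 in C#1, and the subunits CDC26 and ANAPC7 fell by 0.35 and 0.34 in C#6. After renewed quantile normalization 2 of the 5 calls in C#6 and 1 of the 2 lower calls in C#3 were left, and none in C#1. The BUB1B call in C#3 stayed whichever array was left out. In C#6 each of the 5 calls was lost without at least 1 array: BUB1B without parental replicate 1 or 2 or C#6 replicate 1 (-0.43 to -0.30), BUB1 without parental replicate 3 (-0.49), ANAPC2 without parental replicate 2 or 3 or C#6 replicate 1 (-0.40 to -0.34), and CDC26 and ANAPC7 without parental replicate 3 or C#6 replicate 2 (-0.32 to -0.27 and -0.32 to -0.31). The C#1 call of ANAPC2 was lost without parental replicate 2 or 3 or C#1 replicate 2 or 3 (-0.44 to -0.35).

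Of 24 genes that act on G2 and M phase transcription, 18 were tested. The number that fell was 3 in C#1, 4 in C#2, 3 in C#3 and 7 in C#6 (4 in C#6 after renewed quantile normalization), where 11.2%, 11.5%, 11.0% and 14.7% of all genes were lower, with median differences of -0.23, -0.31, -0.24 and -0.27. FOXM1, the transcription factor that drives CCNB1, PLK1 and CDC25B, fell by 0.75 in C#1 (SE 0.17, limma adjusted p = 0.00608), 0.71 in C#2 (SE 0.17, adjusted p = 0.00891), 0.56 in C#3 (SE 0.17, adjusted p = 0.0325) and 0.96 in C#6 (SE 0.17, adjusted p = 0.000727). The C#3 call was lost without any 1 of the 3 parental or 3 C#3 arrays (-0.60 to -0.50). The repressor E2F7 fell by 1.17 in C#1, 1.1 in C#2 and 1.06 in C#6 (SE 0.26; limma adjusted p = 0.00512, 0.00736 and 0.00686), with -0.56 in C#3 not called. DYRK1A, the kinase that assembles DREAM, fell by 0.69 in C#1, 0.73 in C#2 and 0.61 in C#6, with -0.21 in C#3 not called. MYBL2 fell by 0.43 in C#6 (adjusted p = 0.047; lost without any 1 of 11 arrays, -0.48 to -0.23), E2F8 by 0.83 in C#3 (adjusted p = 0.0387; lost without any 1 of the 3 parental or 3 C#3 arrays, -0.87 to -0.78), and RBL1, a DREAM pocket protein, by 0.60 in C#6 (adjusted p = 0.0443; lost without any 1 of 9 arrays, -0.64 to -0.54).

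Of 24 genes that carry out mitosis downstream of CDK1 and PLK1, 21 were tested, and C#6 had the most calls. The number that fell was 4 in C#1, 2 in C#2, 7 in C#3 and 12 in C#6, against the same shares of all genes. After renewed quantile normalization it was 3, 1, 5 and 10 in the same order. LMNA, a nuclear lamin, rose in C#3 by 0.46 (lost without parental replicate 2 or 3, 0.43). The median differences of the list were -0.08, -0.16, -0.27 and -0.49. KIF20A, a kinesin of cytokinesis, fell by 1.18 on the log2 scale in C#6 (SE 0.13, limma adjusted p = 9.99e-06), by 0.50 in C#1 and by 0.39 in C#2. KIF23, the kinesin of the central spindle, fell by 0.88 in C#3 (SE 0.14, adjusted p = 0.000547) and by 0.77 in C#6 (SE 0.14, adjusted p = 0.000886). SMC2, a condensin subunit, fell by 0.72 in C#6, and the midzone proteins CEP55 and PRC1 fell by 0.68 and 0.61 in C#6 and by 0.44 and 0.43 in C#3. TOP2A, the topoisomerase of mitotic chromosomes, fell by 0.58 in C#6 (SE 0.13, adjusted p = 0.00424). MKI67, the proliferation marker Ki-67, was not called in any clone, at 0.31 in C#1, 0.31 in C#2, 0.19 in C#3 and -0.19 in C#6. In C#6 8 of the 12 calls stayed whichever array was left out, KIF20A, KIF23, SMC2, CEP55, PRC1 and TOP2A among them. In C#3 2 of 8 stayed, KIF23 and GTSE1, in C#1 2 of 4, AURKB and ESPL1, and in C#2 0 of 2. AURKB, named after its values were seen, was called lower in all 4 clones (-0.48 in C#1, -0.43 in C#2, -0.38 in C#3 and -0.59 in C#6). Its calls in C#2 and C#3 were lost without single arrays. The C#3 call of CEP55 was lost without parental replicate 2 or 3 or C#3 replicate 1 or 3 (-0.43 to -0.40), and that of PRC1 without parental replicate 1 or 3 or C#3 replicate 2 (-0.41 to -0.38). The KIF20A call in C#1 was lost without parental replicate 2 or C#1 replicate 3 (-0.47 to -0.45) and that in C#2 without any 1 of 12 arrays (-0.43 to -0.26).

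Few genes of G1 and S phase were called. Of 23 listed genes 20 were tested, and the median differences were -0.20 in C#1, -0.10 in C#2, 0.05 in C#3 and 0.03 in C#6. The number that fell was 0 in C#1, 0 in C#2, 1 in C#3 and 1 in C#6. Of all tested genes 11.2%, 11.5%, 11.0% and 14.7% were lower in the same order. In each clone 1 gene was higher, and the share of all genes that were higher is not given here. MCM6, a subunit of the replicative helicase, rose in every clone, by 0.94 in C#1, 0.85 in C#2, 1.27 in C#3 and 0.97 in C#6 (SE 0.23; limma adjusted p = 0.00878, 0.0167, 0.00122 and 0.00574). MCM4, another helicase subunit, fell by 0.56 in C#3 and the G1 kinase CDK6 fell by 0.51 in C#6; no other gene of the list was called. The MCM6 call was lost in C#1 without C#1 replicate 3 (0.74) and in C#2 without parental replicate 2 or 3 or C#2 replicate 3 (0.70 to 0.80), that of MCM4 in C#3 without any 1 of 8 arrays (-0.65 to -0.52), and that of CDK6 in C#6 without any 1 of the 3 parental arrays or C#6 replicate 1 or 2 (-0.56 to -0.35).

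**Figure D4:**
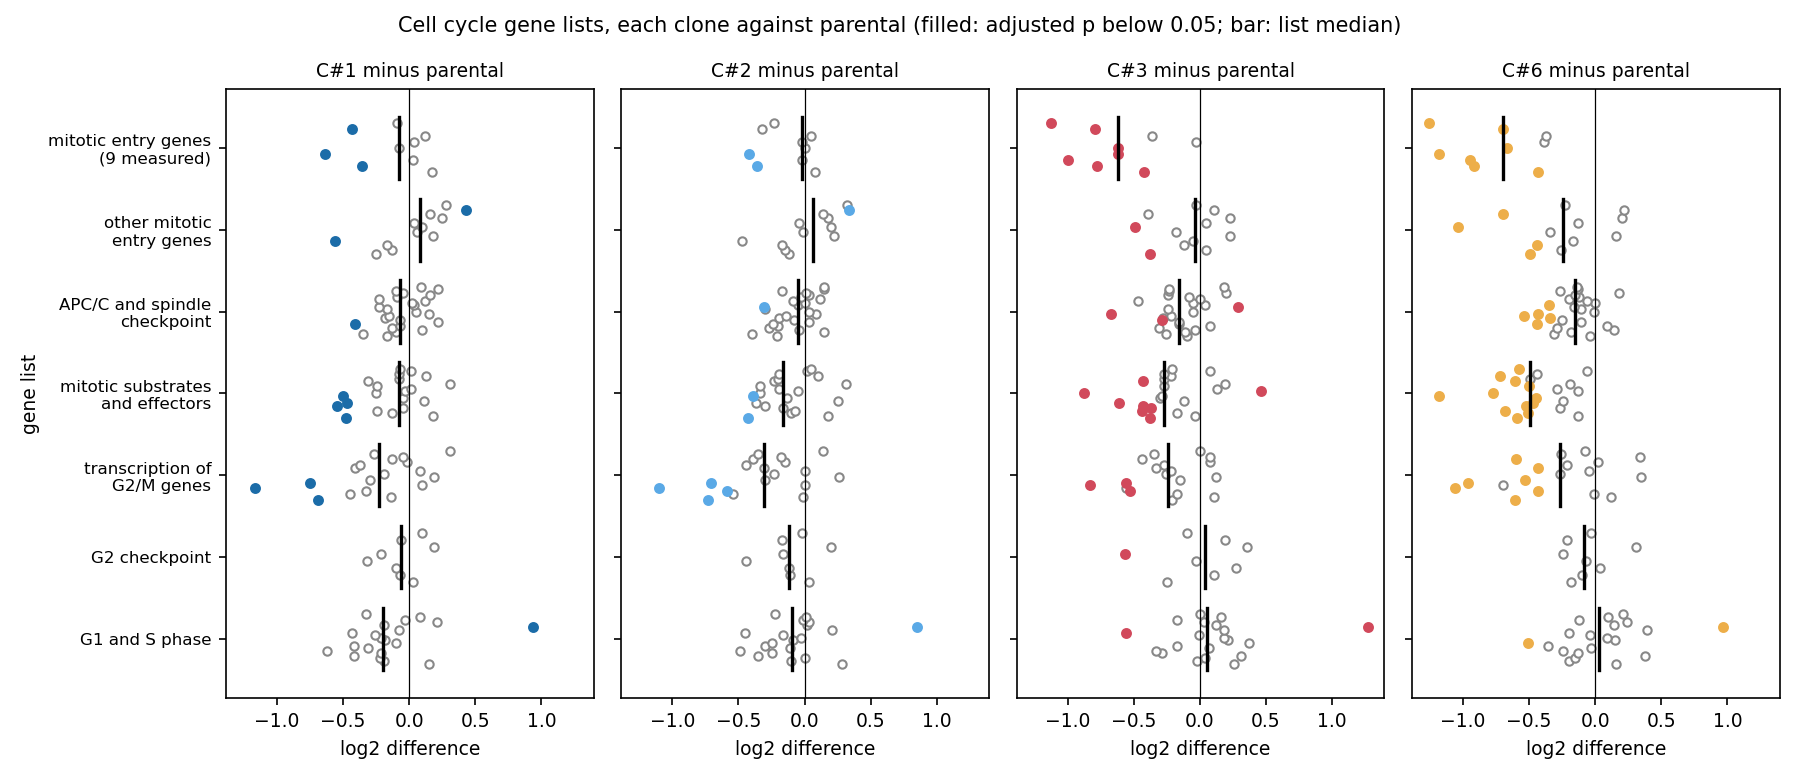
Log2 difference of each clone from the parental line (horizontal axis; filled points have an adjusted p under 0.05) for the 9 measured mitotic entry genes and for the tested genes of the other lists (1 point per gene), with the median of each list as a bar and 1 panel per clone. The 9 measured genes have medians of -0.62 in C#3 and -0.70 in C#6. The list of other mitotic entry genes has -0.04 and -0.25, and the G1 and S phase list has 0.05 and 0.03.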

How the data were processed

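Total RNA of 15 samples, 3 per group, was measured on Affymetrix gene arrays. The authors deposited a table of log2 values for 53617 probe sets. The submitters' processing notes name RMA, the Transcriptome Analysis Console and Affymetrix Expression Console 1.4.1 without saying what each was used for. RMA makes arrays alike and compresses differences near background. Gene symbols came from the platform annotation: 16098 probe sets (30.0%) had 1 symbol and 37519 had none here. The probe build is not given, so no gene coordinates are printed; promoter coordinates are RefSeq's (GRCh38.p14).

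Genes were tested where 3 or more arrays had them above that array's 40th percentile, by the probe set with the highest mean. From these values, limma 3.58.1 in R 4.3.3 (lmFit, eBayes, 10 residual degrees of freedom) fitted 1 mean per group to all 15 arrays, with Benjamini-Hochberg adjustment over 12147 genes within each comparison and calls below 0.05. All adjusted p-values are limma's. The steps were tested on simulated data. Recovery was required there only for changes larger than any that the measured mitotic entry genes showed, so the test does not say how often smaller ones are called.

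The genes and lists were chosen with earlier results of these data known. Named were all listed genes, up to 5 called genes per other list with the largest change, a few fixed markers, and the 5 genes most correlated with CCNB1, CDK1 and PLK1 (for CCNB1 also the 5 lowest). Alternatives changed the filter, scaling, replicate block, arrays used, variance model, probe set choice and threshold. The number of arrays limits the precision. The labels call the arrays biological replicates and say nothing of separate cultures, so p-values measure the spread between these samples, which may be partly technical. Plots used Python 3.11.15 and matplotlib 3.10.9.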

Additional observations from a re-analysis of the deposited data

Results flagged for a closer look

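The differences between clones were tested directly in the same limma fit, clone against clone, and 26 of them passed the threshold; each is given here as the log2 difference, first clone minus second. CCNB1 differed by 0.42 between C#1 and C#3, 0.56 between C#1 and C#6, 0.42 between C#2 and C#3 and 0.56 between C#2 and C#6. CCNB2 differed by 1.03 between C#1 and C#3, 0.97 between C#1 and C#6, 0.98 between C#2 and C#3 and 0.92 between C#2 and C#6. CDK1 differed by 0.48 between C#1 and C#3 and 0.49 between C#1 and C#6. CCNA2 differed by 0.59 between C#1 and C#3, 0.60 between C#1 and C#6, 0.50 between C#2 and C#3 and 0.50 between C#2 and C#6. CDC25B differed by 0.54 between C#1 and C#3, 0.59 between C#1 and C#6, 0.62 between C#2 and C#3 and 0.67 between C#2 and C#6. WEE1 differed by 1.04 between C#1 and C#3, 1.17 between C#1 and C#6, 0.90 between C#2 and C#3 and 1.04 between C#2 and C#6. CDC20 differed by 0.54 between C#1 and C#6, 0.75 between C#2 and C#6 and 0.56 between C#3 and C#6. PLK1 differed by 0.47 between C#2 and C#3. Those of CDK1, of PLK1 and of CDC20 other than between C#2 and C#6 were lost when single arrays were left out, as given with each result. No group had more than 3 arrays, so single arrays were not tested as outliers. In these data C#1 and C#2 could not be told apart for any of the 9 genes in this test, which does not show that they are alike.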

How the results depend on the processing

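Over 25 alternatives, 2166 single-gene results of the 9 genes stayed on their side of the threshold, 68 lost a call, 16 gained one and 0 reversed. Reversal was counted only for results called in the main fit or in the alternative. Differences called in neither could change sign, such as that of CDK1 in C#1 against parental (0.12, range -0.04 to 0.27). The count lower in C#1 against parental (3) was 2 after renewed quantile normalization and 1 at an adjusted p under 0.01. In C#2 (2) it was 1 with no filter, after renewed quantile normalization and with only the arrays of the groups compared, and 0 at an adjusted p under 0.01, where 3 genes had an unadjusted p under 0.05. Between C#3 and C#6 (1) it was 0 at an adjusted p under 0.01 and with only those groups' arrays, where 2 genes had an unadjusted p under 0.05 in the fit to all arrays. Leaving out 1 array at a time gave 1 to 3 in C#1, 0 to 2 in C#2, 6 to 7 in C#3 and 7 to 8 in C#6 against parental. The same gave 5 to 7 between C#1 and C#3, 5 to 8 between C#1 and C#6 and 5 to 7 between C#2 and C#3. It gave 6 to 7 between C#2 and C#6, 0 to 2 between C#3 and C#6 and 0 between C#1 and C#2. In the F test (8) it gave 6 to 8. That test also called 6 with array weights, with only the clone arrays and at an adjusted p under 0.01, and 7 when centred on array medians. Not every change of the other counts is listed.

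With the replicate number as a block, the count lower in C#2 was 1, since CDC20 was lost (-0.42, limma adjusted p = 0.0513; range over its alternatives 0.0142 to 0.202). It changed no other call of the 9 genes against parental or between pairs of clones, and the F test called 7 in place of 8. Whether the numbers pair the samples is not settled by the labels. Over 30 same-numbered pairs of arrays the deviations correlated between -0.129 and 0.462 (median 0.051, 10 over 0.1), against a median of -0.017 for other numbers. Deviations cancel out within a group, so these medians are not independent of each other. In C#1 and C#6 all 3 exceeded 0.1 (0.175 to 0.221), and there the count with the block was 7, as without it. In each other pair of groups at least 1 did not. C#1 and C#2 were among these, although their values reached higher (0.094 to 0.462), and their count was 0 with and without the block.

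The 3 arrays of a clone limit what can be called, values near background are compressed, and PKMYT1 was not analysed here. Neither cell cycle phase nor protein or phosphorylation was measured. Results apply to the 4 clones, not to resistance in general.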
